A study of Homo sapiens with 16 samples.

Results

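LNCaP cells that had lost p53 and were also given the GCN2 inhibitor GCN2iB were compared with LNCaP cells that had neither change. LNCaP is a human prostate cancer line that depends on the androgen receptor. The comparison sets the 4 p53 KO GCN2iB libraries (CRISPR knockout of p53, 5 µM GCN2iB for 48 h) against the 4 WT Vehicle libraries (unedited cells, DMSO for 48 h), so 8 of the 16 libraries of the series. The other 8 libraries carry a single change each. WT GCN2iB cells were unedited and inhibited, and p53 KO Vehicle cells were knocked out and given DMSO. All cells were kept in phenol-free RPMI-1640 with 10% serum and plated at 350000 cells per well. Whether the p53 KO cells are 1 clone or a pool is not stated, so the difference between genotypes may include what separates a clone from its parent line. The labels do not say that the 4 libraries of a group are separate cultures, and all p-values measure only the spread between these libraries. All 18549 genes that passed a count filter, of 62754 in the table, are members of the comparison.

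GCN2, encoded by EIF2AK4, is a kinase that senses uncharged tRNA when amino acids run short and phosphorylates the translation factor eIF2. Phosphorylated eIF2 lowers general protein synthesis but lets the transcription factor ATF4 be translated, which turns on amino acid transporters, biosynthetic enzymes and tRNA synthetases. p53 is a transcription factor that turns on the CDK inhibitor CDKN1A, its own ubiquitin ligase MDM2 and death and repair genes, and it lowers many cell cycle genes through CDKN1A. Both pathways meet at a few genes, among them the stress-induced sestrins that restrain mTORC1. The series asks how losing p53 changes the response to GCN2 inhibition, and its title names purine metabolism.

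The total difference was split into a part that belongs to the inhibitor and a part that belongs to the knockout. The GCN2iB part is the mean log2 difference between GCN2iB and vehicle over both genotypes, the p53 KO part is the mean log2 difference between p53 KO and WT over both treatments, and their sum is the total. The design is balanced, so the estimates of the parts do not depend on each other through a shared control group. A gene was said to add up where both parts were called in the same direction, and to cancel where both were called in opposite directions. Called means an adjusted p under 0.05 by the quasi-likelihood test of edgeR with Benjamini-Hochberg adjustment over the 18549 genes. All fold changes come from that fit, and levels are CPM values (counts relative to the scaled library total).

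Total counts per library ran from 17418072 to 39915685, and WT Vehicle replicate 1 (19670655) and p53 KO GCN2iB replicate 3 (17418072) were the shallowest. Over the 2000 most variable genes, the first principal component (46.3% of the variance) separated the genotypes and the second (10.6%) the treatments. WT GCN2iB replicate 4 lay at -14.3 on the first component, against -27.0 to -25.7 for the other 3 libraries of its group. That library enters both parts but not the total, and the counts of genes that add up or cancel are given without it below. CDKN1A, the best known p53 target, checks the labels: its mean was 275 CPM in WT Vehicle libraries and 42.9 CPM in p53 KO GCN2iB. Of 15 luminal prostate markers all passed the filter, with KRT8 and KRT18 among them. Of 18 immune, blood and endothelial markers 4 did, of 10 basal markers 7, and of 15 neuroendocrine markers 4. PTPRC, PECAM1, TP63 and CHGA were among those that did not. Those that passed included KRT14, LAMB3 and ITGA6 (basal), SYP and PEG10 (neuroendocrine) and VWF, LYZ and NKG7 (immune, blood and endothelial). All of these were called in total, though KRT14 and NKG7 lost the call in 1 other setting each. Of the 7 basal markers 3 were higher in total and 2 lower, against 18.5% of all genes in each direction.

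Promoter windows of 4 genes that carry the findings are shown first, from RefSeq on GRCh38.p14, each the 250 bases before the RefSeq start of the gene. Gene positions given elsewhere are from GENCODE on GRCh38, whose starts can differ from those of RefSeq. SESN2 was the gene whose level went below the sum of the single changes. CDC20 stands for the genes that add up. CHAC1 and GPX8 stand for those that cancel, in part and in full. Capitals mark every match, on either strand, to CCAAT, to TTTGAA (the core of the CHR element of mitotic promoters) and to TGATGNAA (the core of the element that ATF4 binds with C/EBP partners). CCAAT was found in 33.0% of the 27305 promoter windows of the table, TTTGAA in 13.6% and TGATGNAA in 3.19%.
SESN2, chr1:28259268-28259517, plus strand: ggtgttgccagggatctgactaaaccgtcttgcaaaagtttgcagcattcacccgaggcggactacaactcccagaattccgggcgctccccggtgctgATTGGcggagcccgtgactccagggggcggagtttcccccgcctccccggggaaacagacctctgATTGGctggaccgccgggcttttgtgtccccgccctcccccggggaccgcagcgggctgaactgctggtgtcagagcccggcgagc
CDC20, chr1:43358731-43358980, plus strand: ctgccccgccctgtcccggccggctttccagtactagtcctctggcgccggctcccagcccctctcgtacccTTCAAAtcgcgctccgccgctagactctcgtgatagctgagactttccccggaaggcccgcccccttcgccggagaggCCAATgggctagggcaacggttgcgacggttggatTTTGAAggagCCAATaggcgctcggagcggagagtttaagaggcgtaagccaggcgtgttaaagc
CHAC1, chr15:40953221-40953470, plus strand: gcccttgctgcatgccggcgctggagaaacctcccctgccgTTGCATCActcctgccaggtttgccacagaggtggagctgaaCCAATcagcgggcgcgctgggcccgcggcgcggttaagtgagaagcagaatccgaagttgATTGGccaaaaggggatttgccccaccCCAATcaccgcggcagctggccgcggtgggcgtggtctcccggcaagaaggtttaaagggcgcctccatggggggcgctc
GPX8, chr5:55159921-55160170, plus strand: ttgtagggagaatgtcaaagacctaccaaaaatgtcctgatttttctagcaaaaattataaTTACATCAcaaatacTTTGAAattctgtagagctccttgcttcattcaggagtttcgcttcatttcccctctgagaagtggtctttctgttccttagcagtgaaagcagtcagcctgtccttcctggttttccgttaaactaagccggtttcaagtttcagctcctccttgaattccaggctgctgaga
The SESN2 window held CCAAT on the minus strand in 2 places and neither of the other motifs. The CDC20 window held CCAAT in 2 places and TTTGAA in 2. CHAC1 held TGATGNAA in 1 place, ending 202 bases before the start, and CCAAT in 3. GPX8 held TGATGNAA in 1 place and TTTGAA in 1. Of the 25 tested genes of the ATF4 list with a window 5 held TGATGNAA, and of 26 ER chaperone genes 21 held CCAAT and 1 held TGATGNAA. Of 25 genes of the G2/M list 10 held TTTGAA. Among all tested genes with a window the shares were 34.9% for CCAAT, 8.46% for TTTGAA and 1.41% for TGATGNAA. A match describes the letters and not a bound site, and windows were matched for 12076 of 18527 tested symbols.

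Of the 18549 genes, 6870 (37.0%) differed between p53 KO GCN2iB and WT Vehicle. Of these 3436 (18.5%) were higher and 3434 (18.5%) lower. A difference of at least 2-fold was called in 499 genes upward (2.69%) and 486 downward (2.62%). The ranges of the 4 libraries of each group did not overlap, in the direction of the call or not, in 5928 genes (32.0%). Taken alone, the GCN2iB part was called in 6749 genes (36.4%) and the p53 KO part in 6473 (34.9%). Of the 6870 genes that differed in total, 2465 had the p53 KO part called alone, 2459 the GCN2iB part alone, 1267 both in the same direction and 305 both in opposite directions, and 374 had neither part called. The parts were thus about evenly represented among all differences, but not among the large ones. The p53 KO part was the larger of the parts in 392 of the 499 genes that rose at least 2-fold and in 419 of the 486 that fell at least 2-fold. With a filter of a mean of at least 50 counts far fewer genes reached 2-fold, and the larger part was not counted there.

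The 6 largest rises with at least 5 CPM were in KRT16, BASP1, CCL5, IGFBP3, UGT8 and SP8. KRT16, a stress keratin, measured 0.709, 0.354, 0.156 and 0.442 CPM in WT Vehicle libraries and 6.39, 6.85, 5.13 and 8.04 CPM in p53 KO GCN2iB. Every p53 KO GCN2iB library was above every WT Vehicle library, and the total was 4.09 log2 (SE 0.426, adjusted p = 1.53e-06). Its reads may be shared with near-identical keratin copies, so the value is uncertain. CCL5, a T cell chemokine, measured 1.77, 1.53, 1.93 and 2.90 CPM in WT Vehicle libraries and 12.3, 13.8, 13.1 and 15 CPM in p53 KO GCN2iB, a rise of 6.54-fold. IGFBP3, which binds insulin-like growth factors, measured 11.5, 12.4, 13.1 and 12.8 CPM and 80.1, 81.2, 81.9 and 83.7 CPM, a rise of 6.53-fold. In KRT16, CCL5 and IGFBP3 only the p53 KO part was called (in CCL5 and IGFBP3 both parts without WT GCN2iB replicate 2), and p53 KO Vehicle already stood at 6.71, 12.2 and 78.5 CPM on average. In these 3 genes the highest WT GCN2iB library was replicate 4, at 1.79, 5.38 and 30.1 CPM, against at most 0.466, 2.42 and 14.5 CPM in the other 3. Without that library the 3 genes stayed outside the classes with both parts called, and their totals stayed called. The size of their parts without it was not compared.

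BASP1, UGT8 and SP8 rose by adding up. BASP1, a membrane-associated growth cone protein, measured 1.11, 1.00, 1.28 and 1.13 CPM in WT Vehicle libraries and 7.4, 8.18, 7.83 and 9.75 CPM in p53 KO GCN2iB. The single changes gave means between these, 2.38 CPM in WT GCN2iB and 5.58 CPM in p53 KO Vehicle. Its total of 2.87 log2 was made of a GCN2iB part of 0.83 and a p53 KO part of 2.04. UGT8, the enzyme that makes galactosylceramide, rose by 2.57 log2 from 3.90, 3.80, 3.58 and 2.74 CPM to 20.9, 20.9, 22.1 and 18.8 CPM, with parts of 0.62 and 1.95. SP8, a zinc finger transcription factor, rose by 2.52 log2 with parts of 0.93 and 1.59. In these genes the p53 KO part was the larger.

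The 6 largest falls were in MEST, NIBAN1, SMO, SLC22A3, PHLDA3 and CEL. MEST, an imprinted hydrolase gene, measured 8.91, 8.66, 8.66 and 9.51 CPM in WT Vehicle libraries and 0.335, 0.317, 0.288 and 0.233 CPM in p53 KO GCN2iB, a fall of 30.0-fold (adjusted p = 4.22e-13, edgeR). SMO, the signal transducer of the Hedgehog pathway and like MEST on chromosome 7, fell 23.5-fold from 8.61, 9.64, 10.5 and 9.15 CPM to 0.586, 0.222, 0.230 and 0.466 CPM. SLC22A3, an organic cation transporter, fell 21.8-fold from 12.6, 14.1, 13.3 and 13.3 CPM to 0.614, 0.412, 0.921 and 0.612 CPM. In all 3 the p53 KO GCN2iB libraries were under 1 CPM, and the p53 KO part made most or all of the fall (-4.47, -4.02 and -4.61 log2). CEL, a secreted lipase with a near-identical pseudogene, fell by 3.83 on the log2 scale, and its reads are uncertain for that reason.

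NIBAN1, a stress-induced regulator of translation and cell death at chr1:184790724-184974550, showed the largest fall among genes that add up and reach 5 CPM. It measured 6.28, 6.75, 6.26 and 4.81 CPM in WT Vehicle, 1.83, 2.05, 1.61 and 1.82 CPM in WT GCN2iB, 0.693, 0.694, 0.562 and 0.491 CPM in p53 KO Vehicle and 0.140, 0.127, 0.518 and 0.204 CPM in p53 KO GCN2iB. None of the 4 groups overlapped except that p53 KO GCN2iB replicate 3 stood among the p53 KO Vehicle libraries. The total was -4.79 log2 (95% interval -5.30 to -4.29), with a GCN2iB part of -1.61 and a p53 KO part of -3.19.

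**Figure D1:**
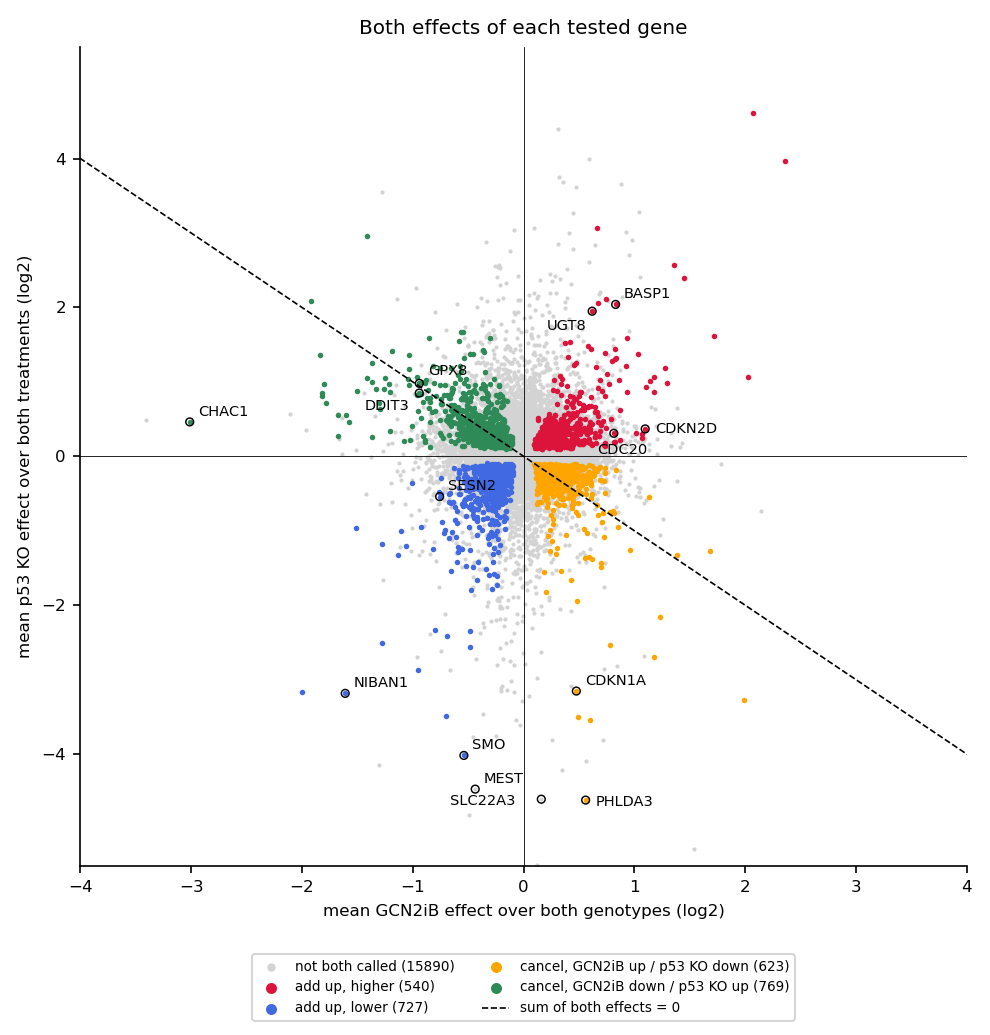
Each point is 1 tested gene, with its GCN2iB part on the x axis and its p53 KO part on the y axis (log2); colours give the 4 classes in which both parts were called, grey the other 15890 genes, circles the labelled genes, and the dashed line the genes whose total is 0 (3 genes lie outside the axes). The lowest points, MEST, SMO, SLC22A3 and PHLDA3, lie along the p53 KO axis, CHAC1 lies along the GCN2iB axis, and GPX8 and DDIT3 lie on the dashed line.

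Both changes added up in 1267 genes, 540 higher (2.91%) and 727 lower (3.92%). The median total was 0.592 log2 in the 540 higher genes and -0.582 in the 727 lower ones, and the median of all tested genes was 0.00992. The class itself fixes the sign of these totals. In the higher genes the median GCN2iB part was 0.315 and the median p53 KO part 0.262, so neither change dominated the class. Both parts were at least 1.5-fold in 42 of the higher and 31 of the lower genes. Without WT GCN2iB replicate 4 the counts were 437 higher and 640 lower.

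Genes of G2/M and mitosis had the largest share of genes that add up among the 27 lists. Of 32 tested members 30 were higher in p53 KO GCN2iB than in WT Vehicle and 0 lower, against 18.5% of all genes higher, and 16 added up against 2.91%. CDC20, the activator of the anaphase-promoting complex at chr1:43358955-43363203, measured 123, 136, 129 and 143 CPM in WT Vehicle, 231, 222, 223 and 241 CPM in WT GCN2iB, 142, 167, 166 and 170.1 CPM in p53 KO Vehicle and 276, 301, 274 and 306 CPM in p53 KO GCN2iB. The p53 KO GCN2iB libraries were above all other 12, and p53 KO Vehicle overlapped the upper end of WT Vehicle. The total was 1.12 log2 (SE 0.0668, adjusted p = 1.29e-11, edgeR), of which 0.81 was the GCN2iB part and 0.31 the p53 KO part.

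PTTG1, the securin that keeps sister chromatids from separating early, measured 73.0, 73.1, 76.9 and 82.8 CPM in WT Vehicle libraries and 144, 151, 156 and 169 CPM in p53 KO GCN2iB. NDC80, a kinetochore protein, measured 67.4, 60.4, 62.3 and 59.5 CPM and 121, 128, 132 and 120.3 CPM in the same groups. Neither gene's groups overlapped, and the totals were 1.02 and 1.01 log2. The GCN2iB part was called upward in 31 of the 32 members and the p53 KO part in 16, with list medians of 0.493 and 0.150. PLK1, AURKA, KIF2C, BIRC5 and UBE2C also added up, with totals of 0.83, 0.78, 0.91, 0.78 and 0.90. CCNA2 and MAD2L1 were the members that cancelled in part, with p53 KO parts of -0.14 and -0.15 against GCN2iB parts of 0.69 and 0.56, and both were still higher in total. With library totals CCNA2 did not cancel. In these bulk samples more cells in mitosis and more mitotic mRNA per cell cannot be told apart.

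CDK inhibitors other than CDKN1A added up in the same upward direction as the mitotic genes. CDKN2A, CDKN2B, CDKN2C and CDKN2D encode the INK4 proteins, which block CDK4 and CDK6, and all 4 added up, as did CDKN1B, which encodes p27. CDKN2D measured 14.4, 16.2, 15.8 and 16.4 CPM in WT Vehicle, 32.7, 36.9, 37.0 and 36.4 CPM in WT GCN2iB, 18.7, 22.5, 20.9 and 24.2 CPM in p53 KO Vehicle and 37.2, 43.5, 41.5 and 51.7 CPM in p53 KO GCN2iB. Each single change put all 4 libraries above WT Vehicle, and both together gave the highest levels. Its parts were 1.10 for GCN2iB and 0.37 for p53 KO.

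CDKN2B had the opposite weights, a GCN2iB part of 0.40 and a p53 KO part of 1.33, and rose from 3.65, 3.86, 2.77 and 3.84 CPM to 11.2, 12.2, 12.1 and 11.6 CPM. CDKN2A and CDKN2C rose by 1.06 and 0.96 log2 in total, and CDKN1B by 0.38. An antisense RNA gene runs across CDKN2B, and without a stated strand setting its reads cannot be told apart from those of CDKN2B. CDKN1A went the opposite way, from 247, 276, 277 and 298 CPM in WT Vehicle to 39.9, 38.5, 41.5 and 51.6 CPM in p53 KO GCN2iB. The list of G1 cyclins and CDK inhibitors had 22 tested members. In total 14 were higher and 2 lower (CDKN1A and the cyclin D1 gene CCND1), against 18.5% of all genes in each direction. Of the 22 members 6 added up, against 2.91% of all genes. Without WT Vehicle replicate 4, 4 were lower.

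Other genes that added up upward were led by MT2A, ID1 and CBLN2. MT2A, a metallothionein whose family members share sequence, measured 79.5, 81.8, 90.3 and 93.5 CPM in WT Vehicle libraries and 321, 334, 292 and 561 CPM in p53 KO GCN2iB. ID1, an inhibitor of basic helix-loop-helix factors, measured 17.4, 18.8, 16.4 and 16.8 CPM and 45.7, 51.9, 47.2 and 64.6 CPM. Both had all p53 KO GCN2iB libraries above WT Vehicle, with replicate 4 the highest. CBLN2, a secreted synaptic organiser, rose from 10.0 CPM to 28.2 ± 0.513 CPM (SD, n = 4). Its single changes gave 14.9 CPM in WT GCN2iB and 12.5 CPM in p53 KO Vehicle, and its excess over their sum was 0.60 log2 with an adjusted p of 0.0526 (edgeR), which missed the threshold.

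DDIT4, THBS1, RASD1 and RIMS3 led the genes that added up downward after NIBAN1. DDIT4 encodes REDD1, an inhibitor of mTORC1 that both ATF4 and p53 can induce. It measured 369.7, 428, 427 and 482 CPM in WT Vehicle, 291, 336, 335 and 327 CPM in WT GCN2iB, 319, 314, 322 and 354 CPM in p53 KO Vehicle and 178, 166, 148 and 224 CPM in p53 KO GCN2iB. All libraries with both changes were below all others, and the parts were almost equal, -0.64 and -0.61 log2. THBS1, a matrix glycoprotein, fell by 1.34 on the log2 scale, with parts of -0.60 and -0.74. RASD1, a Ras-like GTPase, fell by 2.02 and RIMS3, a presynaptic scaffold gene, by 1.20.

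SESN1 and SESN2 both added up downward. SESN1 measured 69.9, 65.2, 71.0 and 63.4 CPM in WT Vehicle libraries and 18.5, 17, 18.1 and 15.3 CPM in p53 KO GCN2iB, and its p53 KO part (-1.73) was larger than its GCN2iB part (-0.24). In SESN2 the GCN2iB part was -0.76 and the p53 KO part -0.54. The other p53 targets that added up downward were TNFRSF10B, a death receptor gene (-0.47), and, in all but 9 of 22 other settings, TP53INP1 (-0.99).

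Androgen receptor targets split between the classes. Of 32 tested members 19 were lower in total and 5 higher (3 without p53 KO GCN2iB replicate 1), with a median total of -0.306, against 18.5% of all genes in each direction. The GCN2iB part was called downward in 26 and upward in 0. Both parts were called downward in 8 members, which added up, and the p53 KO part was called upward against it in 11, which cancelled. CAMKK2, a kinase upstream of AMPK, added up from 146, 156, 152 and 150.4 CPM to 74.8, 71.2, 75.2 and 73.0 CPM (-1.04 log2). TMPRSS2, a luminal serine protease gene, added up from 374, 391, 384 and 415 CPM to 226, 214, 214 and 254 CPM (-0.78 log2). The groups of these genes did not overlap. TMEM45B fell 2.87-fold with the p53 KO part alone called (-1.37 log2).

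The neighbouring kallikrein genes took different sides. KLK3, which encodes prostate-specific antigen, added up downward with a total of -0.37 log2. KLK2 and KLK4 cancelled, with GCN2iB parts of -0.27 and -0.24 and p53 KO parts of 0.62 and 0.51, and were higher in total (0.36 and 0.27). Kallikrein genes share sequence, so part of their reads may be misassigned.

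Luminal prostate markers were mostly lower. Of 15 members 9 were lower, 3 higher and 3 not called, against 18.5% of all genes in each direction. Both parts added up downward in 5, against 3.92% of all genes. ACP3, prostatic acid phosphatase, fell from 47.1, 41.8, 41.9 and 40.4 CPM to 24.8, 22.7, 24.0 and 23 CPM. EPCAM, an epithelial adhesion gene, fell by 0.64 on the log2 scale with parts of -0.17 and -0.47. MSMB, a secreted prostate protein, went against the list and added up upward from 1.67, 1.74, 1.71 and 2.32 CPM to 5.92, 4.91, 6.28 and 7.86 CPM. The cytokeratin gene KRT8 had a total of 0.04 log2, with an adjusted p of 0.676 (edgeR).

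Lipid synthesis genes that were called were mostly lower. In the fatty acid list 11 of 21 were lower and 1 higher (2 without WT Vehicle replicate 4). Over all genes 18.5% were called in each direction. In that list 6 added up downward, 4 to 7 across the settings, against 3.92% of all genes. Among the 6, ACLY left the class in 14 of 22 other settings, ELOVL7 in 8 and ACSS2 in 3. ACSL1, which activates long-chain fatty acids, fell from 401, 399, 428 and 393 CPM to 259, 239, 259 and 216 CPM, and SCD, the main desaturase, fell by 0.43 on the log2 scale. MLXIPL, which encodes the glucose-responsive factor ChREBP, fell by 0.85. ACSL4 was the 1 member that rose (0.91 log2), through the p53 KO part (0.90). In the cholesterol list 8 of 23 were lower and 3 higher, against 18.5% of all genes in each direction, and 5 were lower without p53 KO GCN2iB replicate 2. SREBF2, a regulator of cholesterol synthesis, added up downward with a total of -0.31. MSMO1, a sterol oxidase of that pathway, was lower by 0.60 log2, and both of its parts were called, though not in 7 of 22 other settings.

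Both changes cancelled in 1392 genes, 623 with the GCN2iB part upward (3.36%) and 769 with it downward (4.15%). In 1087 of the 1392 the total was not called. The 95% interval of the total lay within 1.25-fold either way in 371 of the 623 and 424 of the 769, so in these the total was bounded close to 0 while each part passed its own test. The genes with the GCN2iB part upward made 44.8% of the 1392, a share that depended on scaling: with library totals as the only scaling it was 23.3%, from 378 and 1241 genes. Without WT GCN2iB replicate 4 the counts were 639 and 688.

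Large changes that cancelled to near 0 were few. Both parts were at least 1.5-fold in 21 of the 623 and 71 of the 769, and of these 92 genes the interval of the total lay within 1.25-fold in 1 and 5. GPX8, an ER-resident glutathione peroxidase at chr5:55160118-55167071, was the leading example. It measured 14.6, 14.6, 14.1 and 14.5 CPM in WT Vehicle, 7.14, 5.41, 5.81 and 7.88 CPM in WT GCN2iB, 26.5, 23.8, 24.6 and 25 CPM in p53 KO Vehicle and 14.2, 13.9, 14.9 and 16.3 CPM in p53 KO GCN2iB. All 4 WT GCN2iB libraries were lowest, all 4 p53 KO Vehicle libraries highest, and the groups with no change and both changes overlapped. The GCN2iB part was -0.94, the p53 KO part 0.98, and the total 0.04 log2 (95% interval -0.15 to 0.23).

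SLC38A4, an amino acid transporter, and CAPN5, a calpain protease, showed the same pattern. SLC38A4 measured 4.25, 4.21, 4.64 and 3.54 CPM in WT Vehicle libraries and 4.47, 4.75, 4.38 and 3.38 CPM in p53 KO GCN2iB, with means of 2.35 CPM in WT GCN2iB and 7.14 CPM in p53 KO Vehicle. CAPN5 had parts of -0.76 and 0.96, and its total of 0.20 was close to the threshold (adjusted p = 0.0311, edgeR), which it missed in 7 of 23 other settings. BEST1, a chloride channel, had a GCN2iB part of 2.83-fold downward and a p53 KO part of 1.83-fold upward. It was lower in total, 7.49, 9.58, 7.76 and 9.31 CPM against 5.42, 5.77, 5.64 and 5.39 CPM.

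In the opposite direction NUDT3, MEMO1 and MEX3D cancelled, with totals that were not called. An uncalled total is not by itself bounded close to 0. NUDT3, a diphosphoinositol polyphosphate hydrolase, measured 9.72, 12.4, 12.8 and 10.9 CPM in WT Vehicle, 18.7, 26.3, 26.2 and 23.2 CPM in WT GCN2iB, 7.26, 7.84, 6.95 and 9.56 CPM in p53 KO Vehicle and 10.5, 11.5, 9.56 and 15.8 CPM in p53 KO GCN2iB. WT GCN2iB was above all other libraries, and the groups with no change and both changes overlapped. MEX3D, an RNA-binding protein gene, had parts of 0.61 and -0.55 and a total interval of -0.18 to 0.29. MEMO1, a cell motility regulator, had parts of 0.66 and -0.66, and its levels of 4.81, 5.25, 5.08 and 4.92 CPM with no change and 4.27, 5.83, 3.97 and 5.79 CPM with both overlapped. In GUCY1B1, a guanylate cyclase subunit, cancelling was slight: its p53 KO part was -3.54 against a GCN2iB part of 0.60.

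**Figure D2:**
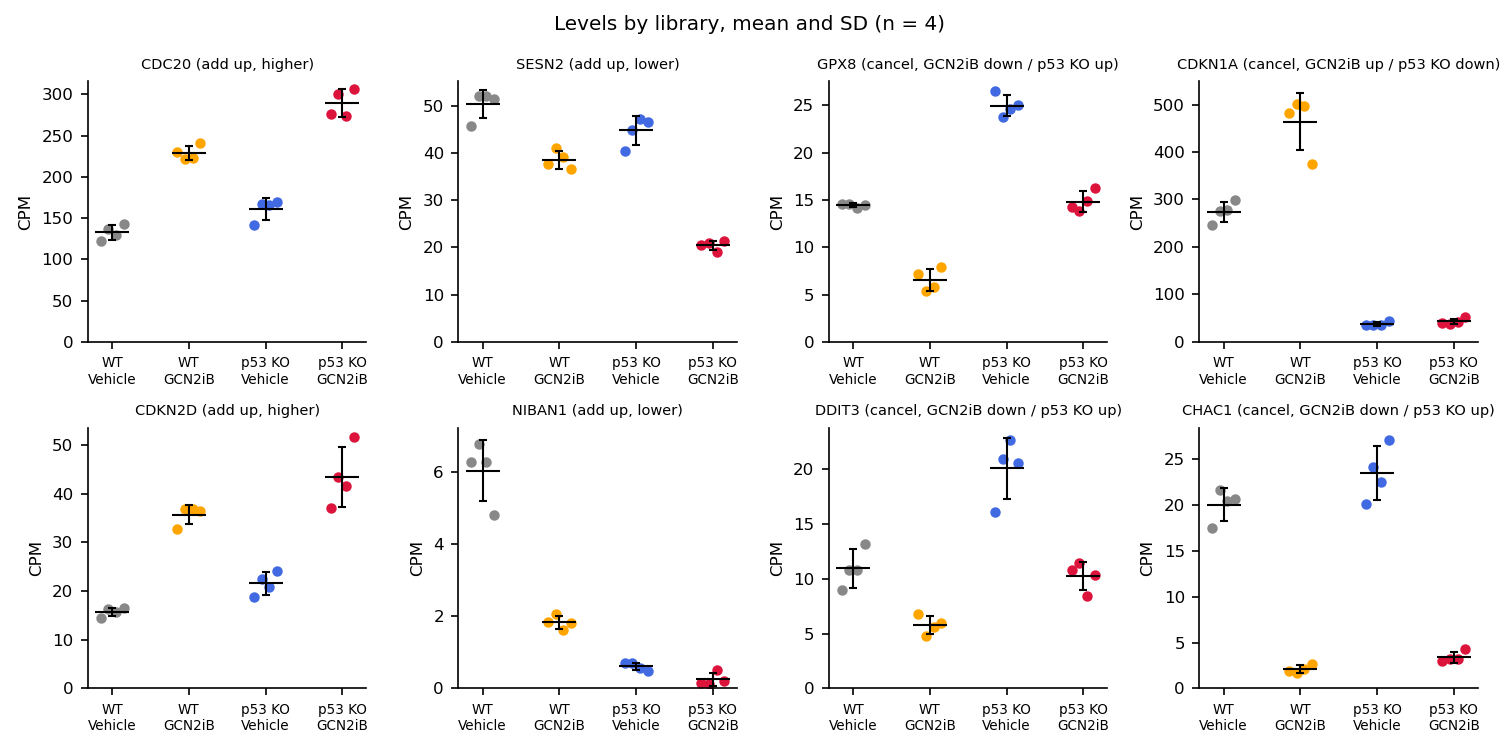
Levels in CPM of 8 genes in the 16 libraries, 4 per group, with points for libraries and bars for the mean and SD. CDC20 and CDKN2D were highest and SESN2 and NIBAN1 lowest with both changes, GPX8 and DDIT3 stood at the WT Vehicle level, and CDKN1A and CHAC1 were below it.

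The ATF4 list was the clearest case of partial cancelling. Of 28 members 20 were lower in total and 1 higher, the GCN2iB part was called downward in 23, and the p53 KO part was called upward in 15. Of these, 14 cancelled with the GCN2iB part downward, against 4.15% of all genes. CHAC1, which degrades glutathione and is a sensitive reporter of ATF4, lies at chr15:40952962-40956519. It measured 17.5, 21.6, 20.4 and 20.6 CPM in WT Vehicle, 1.93, 1.65, 2.06 and 2.71 CPM in WT GCN2iB, 20.2, 24.2, 22.5 and 27.1 CPM in p53 KO Vehicle and 2.99, 3.17, 3.17 and 4.28 CPM in p53 KO GCN2iB. Both inhibited groups were far below both vehicle groups, and within the inhibited ones every p53 KO library was above every WT library. The GCN2iB part was -3.01 and the p53 KO part 0.46, leaving a total of -2.55 log2 (SE 0.130, adjusted p = 9.87e-13, edgeR).

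ATF4 mRNA was also lower in both inhibited groups. It measured 442, 496, 509 and 538 CPM in WT Vehicle, 217, 199, 209 and 226 CPM in WT GCN2iB and 279, 287, 279 and 292 CPM in p53 KO GCN2iB, while p53 KO Vehicle had a mean of 504 CPM. Its total was -0.80, with parts of -1.02 and 0.22. ADM2, a secreted peptide gene, had a total of -1.04 with parts of -1.60 and 0.56. ASNS, asparagine synthetase, did not cancel: its total of -0.98 was the GCN2iB part alone (-0.97), and the groups of 6.23, 7.31, 7.38 and 6.22 CPM and 3.57, 3.68, 4.03 and 2.65 CPM did not overlap. EIF2AK4, which encodes the inhibited kinase, had a total of -0.24 (adjusted p = 0.0181, edgeR) and overlapping groups.

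DDIT3 and HERPUD1 of this list stood near the WT Vehicle level with both changes. DDIT3, which encodes the stress factor CHOP, measured 8.96, 10.8, 10.8 and 13.2 CPM in WT Vehicle, 6.77, 4.74, 5.62 and 5.98 CPM in WT GCN2iB, 16.1, 21.0, 22.6 and 20.6 CPM in p53 KO Vehicle and 10.8, 11.5, 8.47 and 10.3 CPM in p53 KO GCN2iB. Its parts were -0.94 and 0.85, and the total of -0.09 was not called. HERPUD1, an ER-associated degradation factor, had parts of -0.65 and 0.56 and a total interval of -0.22 to 0.04. ATF3, a stress-induced factor, cancelled with parts of -0.48 and 0.65. Its total of 0.17 was called higher, but not in 17 of 23 other settings, most of them with 1 library left out.

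Amino acid transporters and tRNA synthetases, which ATF4 can induce, were lower in total in 11 of 20 and 13 of 20 members, against 18.5% of all genes, with 1 higher in each. No transporter was called higher without p53 KO GCN2iB replicate 2, and 2 were without p53 KO Vehicle replicate 1. SLC7A5, the catalytic chain of the LAT1 exchanger, measured 17.8, 17.5, 16 and 17.5 CPM in WT Vehicle libraries and 7.42, 8.08, 8.24 and 8.10 CPM in p53 KO GCN2iB. In WT GCN2iB it was lower still, 4.35, 3.80, 4.08 and 4.89 CPM. Its total of -1.11 was what a GCN2iB part of -1.67 and a p53 KO part of 0.56 left. SLC6A9, a glycine transporter, fell 2.63-fold in total with parts of -1.67 and 0.28. SLC1A5, the main glutamine carrier, fell 2.29-fold through the GCN2iB part, and its p53 KO part of 0.08 was not called. SLC43A1, which carries branched-chain amino acids, cancelled, with parts of -0.64 and 0.64 and a total interval of -0.14 to 0.13.

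Among synthetases GARS1, for glycine, went from 284, 269, 272 and 275 CPM to 132, 126, 128 and 122 CPM, with no overlap and a total of -1.12 log2. CARS1, for cysteine, had a total of -0.86 with parts of -1.20 and 0.35, and MARS1, for methionine, -0.68 with the GCN2iB part alone called (-0.62). FARSA, a chain of the phenylalanine enzyme, was called higher in total (0.20), but not in 15 of 23 other settings, DESeq2 among them.

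In the serine, glycine and one-carbon list 10 of 24 members were lower and 2 higher, against 18.5% of all genes each way. Without WT Vehicle replicate 2, WT Vehicle replicate 4 or p53 KO GCN2iB replicate 4 1 was higher. PSAT1, of serine synthesis, cancelled in part: it measured 422, 379.7, 392 and 376 CPM in WT Vehicle libraries and 244, 238, 245 and 237 CPM in p53 KO GCN2iB, with parts of -0.89 and 0.19. SHMT2, the mitochondrial serine hydroxymethyltransferase, added up and went from 560.1, 622, 628 and 659 CPM to 367, 374, 354 and 409.8 CPM (-0.71 log2). GLDC, of glycine cleavage, also added up (-0.89 log2). The cytosolic counterpart SHMT1 added up in the opposite direction (0.50 log2), and MTHFS rose by 0.53 with the GCN2iB part alone called, a total whose call was lost without each of the same 3 libraries.

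ER chaperones and unfolded protein response genes had the largest share of genes that cancel among the 27 lists. Of 29 members 17 cancelled with GCN2iB downward and p53 KO upward, against 4.15% of all genes. The GCN2iB part was called downward in 22 and the p53 KO part upward in 22. In total 8 were higher and 7 lower, against 18.5% of all genes in each direction, with a median of -0.0875. Without WT Vehicle replicate 2, or without p53 KO GCN2iB replicate 4, 5 were higher. HSP90B1, the chaperone GRP94, measured 1426, 1240, 1241 and 1309 CPM in WT Vehicle, 945, 768, 808 and 852 CPM in WT GCN2iB, 1841, 1737, 1800 and 1628 CPM in p53 KO Vehicle and 1250, 1180, 1275 and 1177 CPM in p53 KO GCN2iB. The groups with no change and both changes overlapped, and those with a single change lay below and above them.

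HSPA5, the chaperone BiP, kept a small rise in total (0.18 log2, adjusted p = 0.0101, edgeR) from parts of -0.35 and 0.53, a call that was lost without p53 KO GCN2iB replicate 3 and with no count filter. PDIA4, a disulfide isomerase, went from 666, 655, 664 and 663 CPM to 862, 844, 859.9 and 856 CPM, with a p53 KO part (0.64) larger than its GCN2iB part (-0.27). PDIA6, of the same family, was lower (-0.42 log2) and added up in all but 3 of 22 other settings, and DNAJB11, a co-chaperone of BiP, rose through the p53 KO part alone (0.35 log2). The sensor genes ERN1 and ATF6 cancelled, with total intervals of -0.36 to -0.03 and -0.26 to 0.04.

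p53 target genes were mostly lower through the p53 KO part, and in many the GCN2iB part had the opposite direction. Of 39 members 32 were lower in total and 3 higher, against 18.5% of all genes in each direction, and 12 cancelled with GCN2iB upward, against 3.36%. CDKN1A, whose levels are given above, stood at 483, 501, 498 and 375 CPM in WT GCN2iB and 35.4, 36.1, 35.4 and 43.1 CPM in p53 KO Vehicle. Both p53 KO groups were far below both WT groups. Its GCN2iB part was 0.48, its p53 KO part -3.15, and its total -2.68 log2 (SE 0.104, adjusted p = 2.85e-14, edgeR). The GCN2iB part came mainly from WT cells, where the change was 0.76 log2 against 0.20 in p53 KO, though the difference between these (adjusted p = 0.286) was not called.

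PHLDA3, an inhibitor of AKT signalling, measured 65.2, 78.0, 81.2 and 92.8 CPM in WT Vehicle, 120, 147, 167 and 139.8 CPM in WT GCN2iB and 4.08, 4.69, 2.88 and 6.81 CPM in p53 KO GCN2iB, a fall of 16.7-fold in total. BAX, a pore-forming death protein, went from 50.2, 53, 56.4 and 60.2 CPM to 38.2, 39.9, 35.6 and 48.9 CPM, with parts of 0.55 and -0.98. MDM2 fell 2.01-fold, from 118, 99.4, 104 and 97.7 CPM to 56.0, 53.4, 57 and 42.7 CPM, and SPATA18, a mitochondrial quality gene, 12.2-fold. Both had the p53 KO part alone called. TRIAP1 and PPM1D, a survival factor and a phosphatase that ends p53 signalling, cancelled to totals of -0.07 and 0.14 that were not called.

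**Figure D3:**
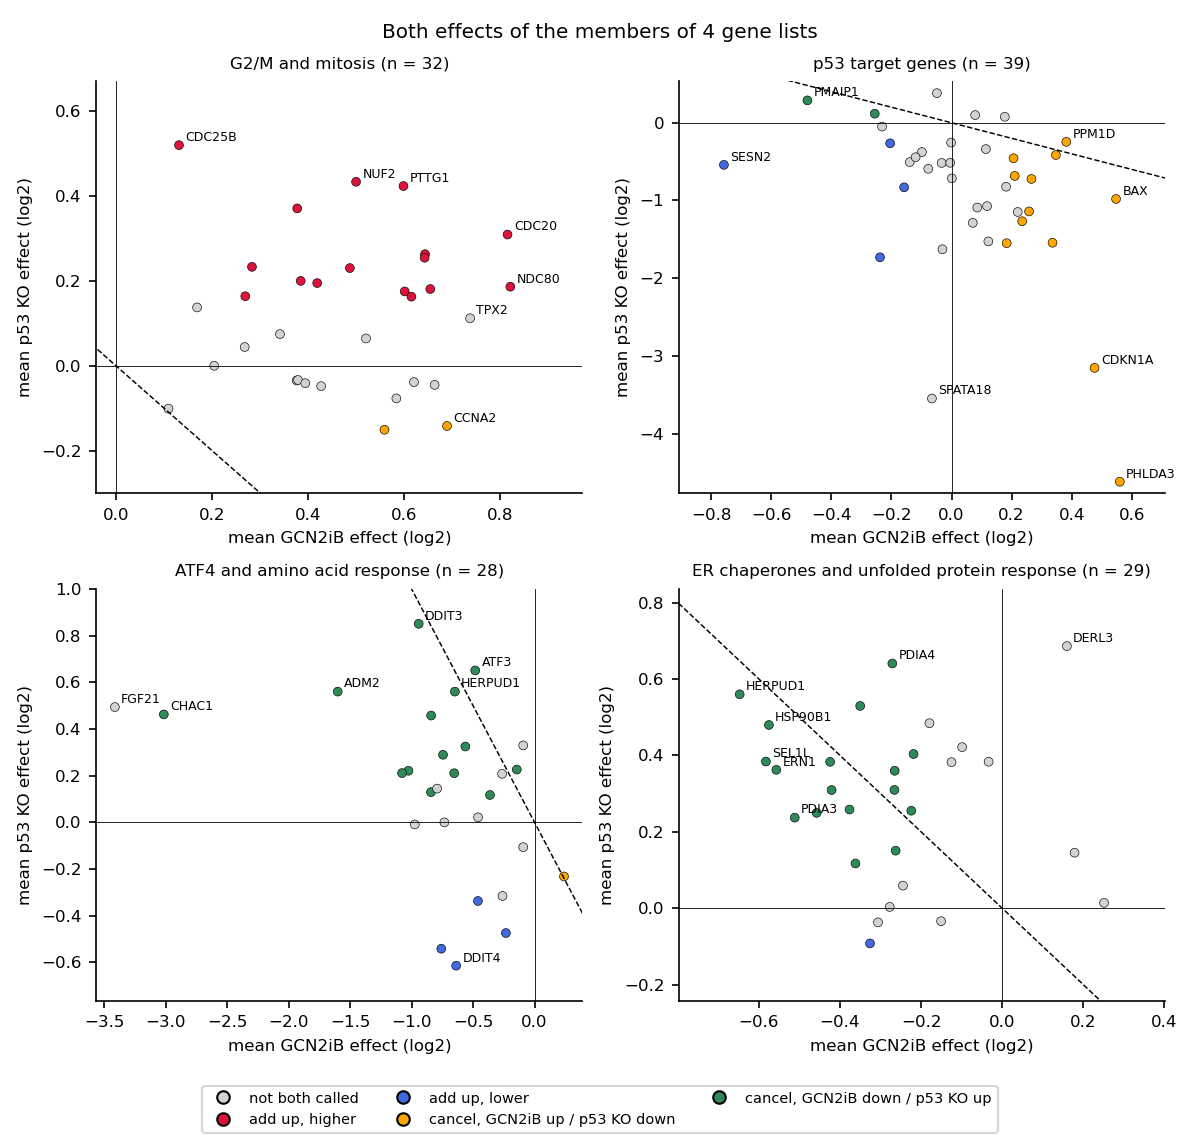
Members of 4 gene lists by GCN2iB part (x axis, log2) and p53 KO part (y axis, log2), coloured by class, with the dashed line where the total is 0 and axes scaled per panel. G2/M genes lie mostly right of 0 and 16 of 32 add up. Most p53 targets lie low, and 12 of 39 cancel with GCN2iB upward and 2 with it downward. ATF4 and ER genes lie mostly left of 0, and 14 of 28 and 17 of 29 cancel with GCN2iB downward. In the ATF4 list 1 more cancels with GCN2iB upward.

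Glycolysis and hypoxia genes cancelled in 9 of 29 members, all with GCN2iB upward and p53 KO downward, against 3.36% of all genes. In total 17 were lower and 0 higher, against 18.5% of all genes in each direction. The count of lower genes was 11 without WT Vehicle replicate 4, without p53 KO GCN2iB replicate 2, without p53 KO GCN2iB replicate 3 or with the 8 compared libraries alone, and 1 gene was higher without WT Vehicle replicate 4. The p53 KO part was called downward in 23 members and upward in 0. LDHA, lactate dehydrogenase, had parts of 0.12 and -0.29 and a total of -0.17, and it left the class in 8 of 22 other settings. PKM, pyruvate kinase, had parts of 0.16 and -0.21 and a total interval of -0.17 to 0.08. Of the other members 4 added up downward, against 3.92% of all genes. Among them VEGFA, an angiogenic factor, went from 141, 141, 128 and 138 CPM to 79.9, 80.6, 70.7 and 83.8 CPM. PDK1, a kinase that inhibits pyruvate dehydrogenase, went from 72.0, 58.1, 59.9 and 65.0 CPM to 35.7, 31.2, 30.3 and 33.1 CPM. BNIP3L, a mitophagy receptor, fell by 0.66 on the log2 scale.

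DNA replication genes were higher in total in 27 of 41 members, against 18.5% of all genes in each direction. The lower members were 2, MCM3 and MCM6. The GCN2iB part was called upward in 33 and downward in 0, whereas the p53 KO part was called upward in 7 and downward in 13. So 10 cancelled with GCN2iB upward (6 with library totals), against 3.36% of all genes. In the same list 5 added up (3 without WT Vehicle replicate 3), against 2.91% of all genes. RFC4, a clamp loader subunit, went from 59.1, 60.6, 57.6 and 60.5 CPM to 90.2, 88.9, 94.0 and 100.3 CPM through the GCN2iB part alone (0.59 log2). ORC6, of the origin recognition complex, added up to 0.71 and CLSPN, a checkpoint mediator, to 0.78, the latter in all but 3 of 22 other settings. PCNA, the sliding clamp and itself a p53 target, had parts of 0.43 and -0.29, and its total of 0.14 missed the threshold (adjusted p = 0.0508, edgeR) although its groups did not overlap.

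**Figure D4:**
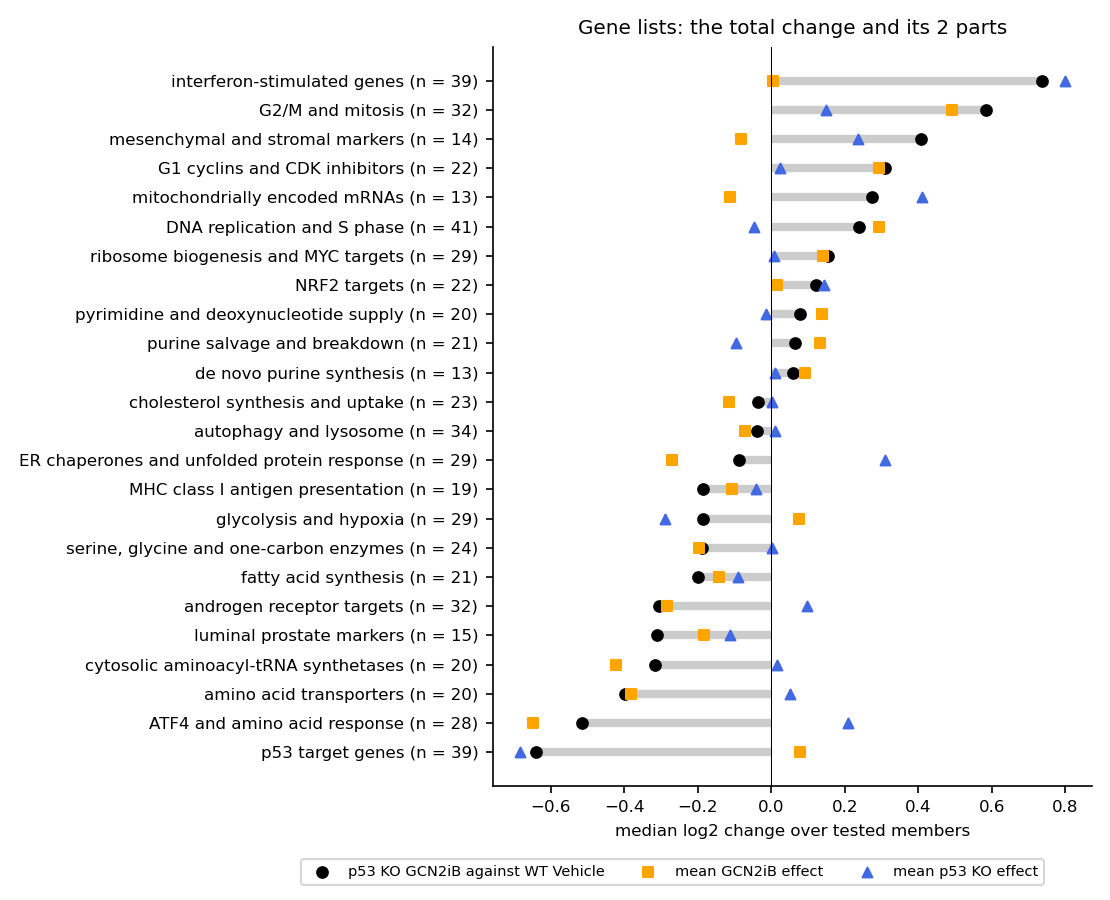
Median log2 change over the tested members of each list with at least 13 of them: black points give p53 KO GCN2iB against WT Vehicle, orange squares the GCN2iB part and blue triangles the p53 KO part. In G2/M genes both parts lie right of 0, in ER chaperone genes the parts lie on either side (-0.271 and 0.309) with the total between, and in interferon-stimulated genes the total of 0.738 lies beside the p53 KO part.

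SESN2 was the only gene of 18549 (0.00539%) whose level with both changes was called apart from the sum of the single changes. Here the sum is that of GCN2iB in WT and of p53 KO under vehicle. SESN2 (ENSG00000130766), which encodes a leucine sensor that restrains mTORC1, lies at chr1:28259527-28282491. It measured 45.8, 52.2, 52.1 and 51.4 CPM in WT Vehicle, 37.6, 41.0, 39.1 and 36.5 CPM in WT GCN2iB, 40.4, 44.9, 47.2 and 46.6 CPM in p53 KO Vehicle and 20.4, 20.9, 19.1 and 21.3 CPM in p53 KO GCN2iB. The 4 libraries with both changes were below all others, and p53 KO Vehicle overlapped WT Vehicle. The GCN2iB change was -0.39 log2 in WT and -1.13 in p53 KO. The level with both changes was below the sum by -0.74 log2 (95% interval -0.94 to -0.54, adjusted p = 0.00142, edgeR). Across 22 settings of the fit the value ran from -0.806 to -0.714, with adjusted p up to 0.00772.

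Over all genes the distance from the sum was small. Its median was 0.0232 log2 and 1754 genes had an unadjusted p under 0.05. DESeq2 called 20 genes above and 19 below the sum, so the count depends on the test. CBLN2 and SLC7A5 lay above the sum by 0.60 and 0.65 log2 and missed the threshold in edgeR, each with an adjusted p of 0.0526.

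Purine genes are the subject of the title. Of 13 tested de novo purine genes 3 were higher and 1 lower in total, a share of 30.8% that is near the 37.0% of all genes. The count of higher genes was 5 with the replicate block or with a mean of at least 50 counts. Of the parts, that of GCN2iB was called upward in 5 and downward in 2, against 36.4% of all genes either way, and the p53 KO part upward in 2. PFAS, the enzyme of the FGAM step, measured 65.7, 73.2, 73.1 and 69.6 CPM in WT Vehicle, 108, 109, 105 and 99.4 CPM in WT GCN2iB, 65.9, 73.2, 76.8 and 73.2 CPM in p53 KO Vehicle and 91.2, 99.3, 101 and 93.4 CPM in p53 KO GCN2iB. Both inhibited groups were above both vehicle groups. The total of 0.45 log2 (SE 0.0618, adjusted p = 4.84e-06, edgeR) was the GCN2iB part (0.50), and the p53 KO part of -0.05 was not called. PRPS1, which makes the PRPP precursor, was the 1 gene of the list that added up (not with library totals or no count filter), from 223, 221, 234 and 224 CPM to 270.2, 279, 280.4 and 291 CPM. IMPDH2, of guanine nucleotide synthesis, rose by 0.35 and ATIC, of the last steps to IMP, had a total of -0.26.

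In purine salvage and breakdown 5 of 21 were higher and 5 lower, shares near the 18.5% of all genes in each direction. AK4, a mitochondrial adenylate kinase, added up downward (-0.56 log2). NT5C3A, a nucleotidase, rose by 0.39, with both parts called here but not in 13 of 22 other settings. Pyrimidine and deoxynucleotide supply genes were higher in 7 of 20 and lower in 3, against 18.5% of all genes in each direction. TK1, thymidine kinase, went from 196, 228, 233 and 247 CPM to 359, 367, 359.7 and 426 CPM through the GCN2iB part alone (0.76 log2). DCTD, dCMP deaminase, fell by 0.53 on the log2 scale through the p53 KO part alone. RRM1 and RRM2, subunits of ribonucleotide reductase, were both higher in total (0.49 and 0.41). RRM2 cancelled in part, except with library totals, and RRM1 added up here but not in 13 of 22 other settings.

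Interferon-stimulated genes rose through the p53 KO part. Of 39 members 27 were higher in total and 4 lower, against 18.5% of all genes in each direction, with a median of 0.738 log2. The p53 KO part was called upward in 29 and the GCN2iB part upward in 7 and downward in 6. Over all genes these parts were called either way in 34.9% and 36.4%. OASL, an antiviral OAS-like protein, was among the 5 that added up and measured 35.4, 35.9, 35.1 and 38.0 CPM in WT Vehicle libraries and 137, 144, 129.6 and 148 CPM in p53 KO GCN2iB. IFIT3 went from 12.8, 11.7, 11.6 and 12.9 CPM to 51.6, 53.3, 49.6 and 50.7 CPM and OAS1 from 4.10, 3.57, 4.30 and 3.90 CPM to 8.57, 8.91, 8.24 and 9.00 CPM, with no overlap. In OASL and IFIT3 the WT GCN2iB library of replicate 4 stood highest in its group, at 64.0 and 20.4 CPM.

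MHC class I genes did not follow the interferon list. Of 19 members 9 were lower and 2 higher, against 18.5% of all genes in each direction. HLA-B fell from 29.9, 35.0, 33.6 and 38.7 CPM to 17.2, 16.4, 15.9 and 18.9 CPM and added up, though reads of HLA genes are hard to assign. TAP1 and TAP2, the peptide transporters, fell by 0.53 and 0.58 on the log2 scale. HLA-B, TAP1 and TAP2 lie at 30 to 40 Mb on chromosome 6. The 194 tested genes of that stretch had a median total of -0.14, with 62 called lower and 25 higher. Whether the fall of these MHC genes is particular to the list was not tested. B2M, the invariant chain, rose by 0.54 log2 through the p53 KO part (0.63).

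Ribosome biogenesis genes were higher in 13 of 29 members and lower in 4, against 18.5% of all genes in each direction. NOP56 and DKC1, of small nucleolar RNA particles, rose by 0.55 and 0.43 log2. Both parts were called in each, but not in 11 of 22 other settings for NOP56 and 16 of 22 for DKC1. RRS1, an assembly factor, rose by 0.50 with the GCN2iB part alone called.

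The 13 mRNAs of the mitochondrial genome were higher in 7 cases and lower in 0, against 18.5% of all genes in each direction. MT-ND1 and MT-ND4, complex I subunits, rose by 0.34 and 0.36 log2, but 2 of the 13 had groups without overlap, against 32.0% of all genes.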

How the data were processed

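RNA of 16 LNCaP samples, 4 per group, was sequenced in paired ends. The authors deposited raw read counts per gene, not normalized, for 62754 genes, and 0 columns were left without a sample. GRCh38, Trim Galore, HISAT2, featureCounts and DESeq2 appear in the submitters' processing notes, with no versions. Neither strand setting nor annotation release is given in the sources used here. Positions are from GENCODE release 29 on GRCh38.

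Counts were fitted in R 4.3.3 with edgeR 4.0.16 (filterByExpr, TMM scaling, robust quasi-likelihood, 1 term per group, all 16 libraries). The 18549 genes kept held at least 99.906% of each library's counts. Contrasts were the total, its GCN2iB and p53 KO parts, the single changes and the distance from their sum. Tests were two-sided. Intervals are 95%, with standard errors taken from the F statistic. The code was tested on simulated data.

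The comparison, the 27 gene lists (641 genes, 592 tested) and the rule for named genes were chosen with earlier results of these data known. The rule took 7 fixed genes, the 6 largest rises and falls at 5 CPM or more without overlap, 5 genes per class with the largest smaller part, up to 4 genes called either side of the sum, and 3 genes per list with at least 25% called. Other list members named were picked after their values were seen, and some members are not reported here. Alternatives were DESeq2 1.42.0 (test and size factors), library totals, no count filter, a mean of at least 50 counts, the 8 compared libraries alone, a replicate block and each library left out. List counts, the calls of listed genes and the SESN2 difference under these settings were added after seeing the data. Same-numbered libraries are not paired by the labels, so the numbers were not taken as pairs in the main fit. Of 24 such pairs 12 had residual correlations over 0.1, the highest 0.617, so some shared structure may be left out. With the replicate block 4010 genes were higher and 4088 lower in total, against 3436 and 3434. Tables and plots used Python 3.11.15, pandas 2.3.3 and matplotlib 3.10.9.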

Additional observations from a re-analysis of the deposited data

Results flagged for a closer look

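In 4 of 74 groups of 4 libraries that were examined, 1 library stood far from the other 3, and chance gives about 1 in 20. CHAC1 was at 4.28 CPM in p53 KO GCN2iB replicate 4 and at 2.99 to 3.17 CPM in the other 3. MT2A was at 561 CPM in that same library and at 292 to 334 CPM in the others. RIMS3 was at 2.85 CPM in p53 KO GCN2iB replicate 1 against 2.13 to 2.22 CPM. SESN2 was at 45.8 CPM in WT Vehicle replicate 1, the shallowest of its group, against 51.4 to 52.2 CPM. The change of SESN2 under GCN2iB differed between genotypes by -0.74 log2 (p53 KO minus WT), by the test of the difference itself (adjusted p = 0.00142, edgeR). That difference kept its direction and its call without WT Vehicle replicate 1 and in every other setting run.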

How the results depend on the processing

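Counts of genes called in total, and of genes that add up, stayed within 1.5 times their value in every one of the 23 settings that gave them. With a mean of at least 50 counts the genes at 2-fold or more numbered 143 higher and 203 lower, against 499 and 486. All genes called in total numbered 3029 higher and 3029 lower there, against 3436 and 3434, so the 2-fold counts fell far more. The cause of that fall was not tested. Genes that cancel with GCN2iB upward numbered 623, 689 with DESeq2 size factors, 378 with library totals and, in another design, 939 with the replicate block. With GCN2iB downward they numbered 769 and, with library totals, 1241. Of the cancelling genes the share with GCN2iB upward was 44.8%, 23.3% with library totals, 52.2% with no count filter and 50.2% by DESeq2. All 378 were among the 623, and all 769 among the 1241. The cause was not tested. Counts apart from the sum were the least stable. Above it were 0 genes, 13 with no count filter, 20 by the DESeq2 test and 35 with the replicate block, and 0 to 19 when each library was left out, the most without WT GCN2iB replicate 1. Below it was 1 gene, 2 with DESeq2 size factors, 4 with library totals, 34 with no count filter, 6 with a mean of at least 50 counts, 19 by DESeq2 and 26 with the block, and 1 to 15 when each library was left out, again the most without WT GCN2iB replicate 1. Of 2550 pairs of a named gene and a setting, 2538 kept direction and call, 12 lost the call (EIF2AK4, CAPN5, KRT14 and NKG7) and 0 reversed. Same-numbered libraries of WT Vehicle and p53 KO GCN2iB had residual correlations of 0.0598 to 0.617, and 11 of 16 libraries correlated best with their own number, a hint from the data and not the design. The median over listed genes of a part changed sign between settings where it lay near 0, for the p53 KO part of the tRNA synthetase, one-carbon, de novo purine, pyrimidine, cholesterol, autophagy, ribosome and G1 lists and the GCN2iB part of the interferon and NRF2 lists, and medians of the small basal and immune lists changed sign too. Depth limits genes of a few CPM, such as NIBAN1 and MEST with both changes.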

Other observations

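Lists of redox, autophagy and stromal genes held single genes with large totals. In the NRF2 list 6 of 22 members were higher and 4 lower, against 18.5% of all genes in each direction. SLC7A11, the cystine carrier that ATF4 also induces, had a total of -1.12 log2 with parts of -1.57 and 0.46, while HMOX1, heme oxygenase, rose by 0.73 through the p53 KO part. In the autophagy list 4 of 34 were higher (2 without WT Vehicle replicate 2) and 9 lower, in all near the 37.0% called over all genes, and MAP1LC3A fell from 3.90, 4.04, 4.24 and 4.26 CPM to 1.17, 0.729, 0.633 and 1.22 CPM. Of 14 mesenchymal and stromal genes 5 were higher and 3 lower, against 18.5% of all genes in each direction. VIM, vimentin, went from 4.15, 3.86, 4.14 and 5.11 CPM to 8.43, 8.15, 7.08 and 9.17 CPM, with no overlap, and TWIST1 fell by 1.19 on the log2 scale. Of the immune, blood and endothelial markers LYZ, lysozyme, was called higher, but it measured at most 0.0506 CPM in WT Vehicle and 0.837, 0.285, 0.979 and 0.699 CPM in p53 KO GCN2iB, and PTPRC, the marker of all leukocytes, did not pass the count filter.

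Median totals were also shifted over some stretches of the genome. Of 268 windows of 10 Mb with at least 20 tested genes, 6 had a median total above 0.2 and 10 below -0.2. The lowest was 70 to 80 Mb on chromosome 5, with a median of -0.381 over 67 genes, 34 of them called lower and 2 higher. The highest was 160 to 170 Mb on chromosome 3, with a median of 0.342 over 28 genes, 11 of them called higher and 5 lower. On chromosome 1, 210 to 220 Mb came next with a median of 0.308, with 25 of 40 genes higher and 4 lower. The median GCN2iB and p53 KO parts were -0.0707 and -0.228 in the chromosome 5 stretch and 0.175 and 0.0849 in that of chromosome 3. In the chromosome 1 stretch they were 0.0742 and 0.277. The copy number of these stretches was not tested.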
